A study of Homo sapiens with 60 samples.

Results

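The BCL2 family decides whether the outer mitochondrial membrane of a cell is breached in apoptosis, and the levels of 9 of its genes were followed here in HT29 cells, a human colorectal adenocarcinoma line, across extracts of digestive herbal medicines. The 9 genes were taken by symbol from a table of 60675 genes: the BH3-only genes BMF, BBC3, PMAIP1, BCL2L11 and BIK, the anti-apoptotic genes BCL2L1 and MCL1, and the effector genes BAX and BAK1. All 9 were found, once each, and all 9 were among the 16763 genes that passed the filter on low counts.

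Total RNA was sequenced after 24 h in 60 libraries of 25 groups. Sayeok-tang, with 3 libraries at each dose, and Bojungikgi-tang, with 2, are formulas of several herbs extracted in hot water. Single herbs extracted in 70% ethanol were Scutellariae Radix (the root of skullcap), Pinelliae Tuber, Zingiberis Rhizoma Recens and Zingiberis Rhizoma (ginger, fresh and dried), with 3 libraries at each dose, and Coptidis Rhizoma and Zizyphi Fructus, with 1. The low, medium and high doses were 20, 100 and 500 µg/mL, and for Coptidis Rhizoma 12.8, 64 and 320 µg/mL. The series text says that an extract with an IC20 below 500 µg/mL was given at that concentration and at dilutions of it. Vehicle cells (n = 3) received DMSO, at 0.1% by the labels and at 2% by the series text. HT29 is 1 tumour line, so it does not stand for normal gut epithelium.

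In the BCL2 family, BAX and BAK1 form the pores that release cytochrome c from mitochondria, BCL-xL (from BCL2L1) and MCL-1 hold them in check, and the BH3-only proteins BMF, PUMA (from BBC3), NOXA (from PMAIP1), BIM (from BCL2L11) and BIK bind the guards or the effectors to tip the balance towards death. NOXA binds mainly MCL-1, while PUMA and BIM bind all the guards. BH3-only genes are largely set at transcription, among others by the stress factors ATF4 and CHOP or by FOXO factors, whereas MCL-1 is a short-lived protein also set by its turnover. Counts per gene cannot separate spliced forms with opposite roles, such as those of BCL2L1 and MCL1, and no protein was measured.

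On GRCh38, the genes lie in GENCODE 29 as follows. On the plus strand are PMAIP1 (ENSG00000141682) at chr18:59899948-59904306, BCL2L11 (ENSG00000153094) at chr2:111119378-111168447, BIK (ENSG00000100290) at chr22:43110748-43129712 and BAX (ENSG00000087088) at chr19:48954815-48961798. On the minus strand are BMF (ENSG00000104081) at chr15:40087890-40108892, BBC3 (ENSG00000105327) at chr19:47220822-47232766, BCL2L1 (ENSG00000171552) at chr20:31664452-31723989, MCL1 (ENSG00000143384) at chr1:150574551-150579738 and BAK1 (ENSG00000030110) at chr6:33572547-33580293.

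The promoters of the BH3-only genes whose levels are described first are shown because stress factors act on this class of gene through them. RefSeq entries on GRCh38.p14 were found for 7 of the 9 genes, each 300 bases long with 250 before and 50 after a start, and capitals mark motifs found on either strand. For BMF (chr15:40108830-40109129, minus strand), none of the motifs searched was in the window.
BMF: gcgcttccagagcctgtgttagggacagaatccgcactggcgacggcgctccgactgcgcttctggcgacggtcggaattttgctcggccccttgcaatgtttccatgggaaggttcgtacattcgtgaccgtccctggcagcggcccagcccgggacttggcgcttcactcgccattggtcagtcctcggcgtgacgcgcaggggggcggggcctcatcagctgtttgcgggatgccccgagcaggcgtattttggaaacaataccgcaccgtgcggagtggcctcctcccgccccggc
For PMAIP1 (chr18:59899746-59900045, plus strand), capitals mark the core of a cAMP response element, ACGTCA, a site of the ATF family.
PMAIP1: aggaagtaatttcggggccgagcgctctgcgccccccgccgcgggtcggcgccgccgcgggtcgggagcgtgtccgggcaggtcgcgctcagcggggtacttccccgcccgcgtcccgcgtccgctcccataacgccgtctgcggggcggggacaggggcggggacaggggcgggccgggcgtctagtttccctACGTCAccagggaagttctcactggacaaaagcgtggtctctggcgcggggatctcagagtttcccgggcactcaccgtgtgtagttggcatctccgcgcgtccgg
For BBC3 (chr19:47232618-47232917, minus strand), they mark an E-box, CACGTG.
BBC3: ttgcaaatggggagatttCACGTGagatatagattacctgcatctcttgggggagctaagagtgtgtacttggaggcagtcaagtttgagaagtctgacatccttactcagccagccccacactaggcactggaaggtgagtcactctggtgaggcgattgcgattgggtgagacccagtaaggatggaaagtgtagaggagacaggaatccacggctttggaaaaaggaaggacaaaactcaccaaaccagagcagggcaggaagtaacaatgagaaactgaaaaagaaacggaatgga
For BCL2L11 (chr2:111120664-111120963, plus strand), they mark a forkhead site, GTAAACA, the letters that FOXO factors read.
BCL2L11: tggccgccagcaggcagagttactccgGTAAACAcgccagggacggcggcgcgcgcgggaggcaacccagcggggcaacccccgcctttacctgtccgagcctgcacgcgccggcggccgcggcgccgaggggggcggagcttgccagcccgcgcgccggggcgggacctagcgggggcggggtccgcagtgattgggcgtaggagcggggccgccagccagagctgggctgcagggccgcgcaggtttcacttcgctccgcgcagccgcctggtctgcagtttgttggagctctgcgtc
Of 35116 promoters of this length, 7.98% hold ACGTCA (or TGACGT), 7.26% hold CACGTG and 3.42% hold GTAAACA (or TGTTTAC). A C/EBP-ATF composite site, TGATGCAA or TTGCATCA, is in 0.866% and the 10-letter NF-kB site in 0.191%, and neither is in the 9 member promoters. The BAX promoter holds 4 E-boxes, while those of BCL2L1, BAK1 and the other BMF start hold none of these motifs. A match describes letters in this window and shows no binding.

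Libraries held 18016457 to 35819900 counts, and a level of 1 CPM (count scaled to library size) stands for 16.8 to 35.6 counts. The 8 colon epithelium markers summed to 8692 to 15554 CPM, while fibroblast markers summed to 0.938 to 2.16 CPM, endothelial markers to 0.456 to 2.89 CPM and immune markers to 3.13 to 15.7 CPM, nearly all of it CD68; the defining markers DCN, CD3E and CDH5 had medians of 0 and MS4A1 was at 0 throughout. Of the 54 libraries in groups of 2 or 3, 3 stand apart: vehicle replicate 1 with 7.20% and Scutellariae Radix low-dose replicate 3 with 9.35% of counts in ribosomal protein genes (median 5.62%), and Pinelliae Tuber high-dose replicate 2 with 12.6% in mitochondrial genes (median 6.26%). Outside these groups, Coptidis Rhizoma had 1.91% mitochondrial counts at the high and 2.35% at the medium dose. By the sample codes the vehicle libraries form their own set, so a difference between an extract and vehicle cannot be told apart from one between code sets. The 18 comparisons with vehicle share the same 3 vehicle libraries. Nothing in the labels ties a replicate to a culture of its own, so p-values cover only library-to-library spread, which may be technical. Where Coptidis Rhizoma and Zizyphi Fructus are each taken as 1 group, that spread also holds the differences between their doses. In bulk RNA fewer cells and less RNA per cell cannot be told apart.

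In vehicle cells the guards and effectors were abundant and the BH3-only genes scarce. On the scale of CPM per kb of exon, BCL2L1 stood highest at 103 ± 2.40 (mean ± SD, n = 3 here and below), before BAX at 62.9 ± 8.33, MCL1 at 53.4 ± 2.47 and BAK1 at 20.3 ± 0.996 CPM per kb. BCL2L11 (4.05 ± 0.460), BBC3 (2.84 ± 0.139), PMAIP1 (2.10 ± 0.189), BMF (0.950 ± 0.0734) and BIK (0.348 ± 0.0665 CPM per kb) followed. No 2 neighbours in this order overlapped between their vehicle libraries, and the closest were BAX (57.7 to 72.5 CPM per kb) and MCL1 (51.3 to 56.2 CPM per kb). BIK rested on 8, 12 and 7 counts in the vehicle libraries, so counting error is large in its values below.

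**Figure D1:**
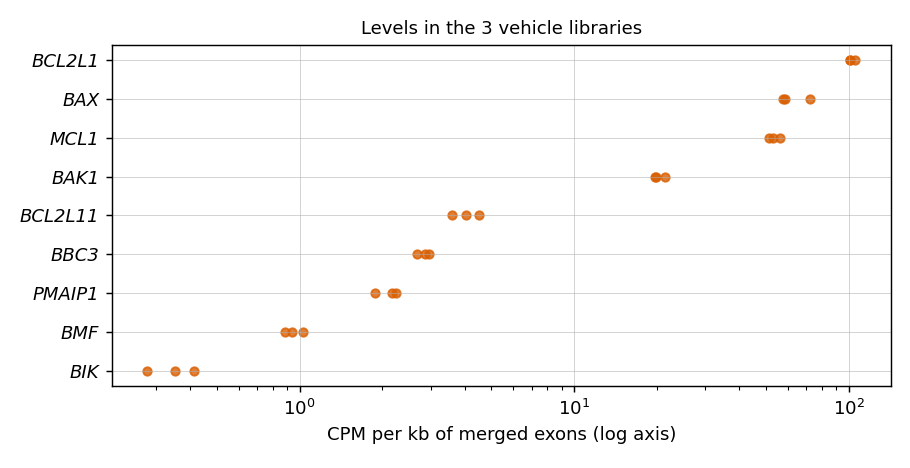
Levels of the 9 genes in the 3 vehicle libraries, in CPM per kb of merged exons on a log axis, 1 point per library. BCL2L1 lies near 103 CPM per kb and BIK near 0.348 CPM per kb, with the 5 BH3-only genes at the low end.

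BMF rose with Scutellariae Radix. BMF encodes a BH3-only protein held on the cytoskeleton and known for death after loss of attachment. Its levels were 12.1, 9.94 and 10.8 CPM at the medium and 8.47, 8.04 and 8.80 CPM at the high dose, against 5.10, 5.61 and 4.82 CPM in vehicle. Every library of both doses lay above every vehicle library. BMF thus rose at the medium (log2 fold change 1.07 ± 0.11, adjusted p = 2.9e-09) and at the high dose (0.70 ± 0.12, adjusted p = 1.1e-05; edgeR's quasi-likelihood test with Benjamini-Hochberg adjustment over all genes, here and below, ± SE). Both calls were kept with each library left out in turn. Over all extracts, 34 of the 57 libraries lay above every vehicle library for BMF.

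The dose course of BMF was not monotonic. At the low dose the libraries read 7.56, 7.82 and 5.63 CPM, of which the last, from the library with 9.35% ribosomal protein counts, lay just above the highest vehicle library. The low dose did not pass the test against vehicle (0.44 ± 0.12, adjusted p = 0.0767), although it did without the 3 libraries that stand apart (0.56, adjusted p = 0.00708). Within Scutellariae Radix, with no vehicle library in the comparison, BMF rose at the medium against the low dose (0.63 ± 0.11, adjusted p = 2.1e-04) and fell at the high against the medium dose (-0.37 ± 0.11, adjusted p = 0.0435). High against low dose gave 0.26 ± 0.11, adjusted p = 0.0977. The fall between medium and high dose lost its call in 5 of the 6 fits that left out 1 library of the pair, every one but medium-dose replicate 2, with log2 fold changes of -0.44 to -0.30, and with no low-count filter (adjusted p = 0.154).

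PMAIP1 rose at the high dose of Scutellariae Radix. PMAIP1 encodes NOXA, the BH3-only protein that binds MCL-1 and marks it for degradation. It read 8.06, 6.87 and 8.00 CPM at the high dose, against 4.22, 4.85 and 5.01 CPM in vehicle, with no overlap (log2 fold change 0.70 ± 0.14, adjusted p = 3.1e-04). At the medium dose it read 5.36, 6.27 and 5.15 CPM and did not pass (0.25 ± 0.15, adjusted p = 0.294). The high against the medium dose was not called in the main fit. It was called without the 3 libraries that stand apart (0.443, adjusted p = 0.00280) and with only the libraries compared (0.439, adjusted p = 0.00626). PMAIP1 was above vehicle in all 18 comparisons, by 0.03 to 0.70. Of all 57 extract libraries, 45 lay above every vehicle library, so the lack of overlap is not particular to this dose. Against the low dose (4.68, 5.11 and 7.62 CPM) the high dose was higher (0.42 ± 0.14, adjusted p = 0.0332), but the groups overlapped through low-dose replicate 3, the library with 9.35% ribosomal protein counts. Without that library the difference was 0.64 (adjusted p = 0.00151), while 4 of the 6 fits that left out 1 library, high-dose replicate 1 or 3 or low-dose replicate 1 or 2, lost the call (lowest log2 fold change 0.29).

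MCL1, the guard that NOXA binds, rose with PMAIP1 at the same dose. It read 298, 297 and 311 CPM at the high and 265, 271 and 280.2 CPM at the medium dose, against 224, 231 and 245 CPM in vehicle. All 6 treated libraries lay above the 3 vehicle libraries, as did 47 of the 57 libraries over all extracts. The high-dose libraries lay above those of the medium dose, but this difference was not called in the main fit. It was called without the 3 libraries that stand apart (0.148, adjusted p = 0.00205) and with only the libraries compared (0.145, adjusted p = 0.00450). The share of all genes with such a gap was not counted. The log2 fold changes were 0.37 ± 0.06, adjusted p = 2.0e-05 at the high and 0.22 ± 0.06, adjusted p = 0.0202 at the medium dose. Against the low dose (250.5, 255 and 239.7 CPM) the high dose was also higher (0.28 ± 0.06, adjusted p = 0.00101). The calls at the high dose against vehicle and against the low dose were kept with each library left out, while that at the medium dose ended without vehicle replicate 1 or 2 or medium-dose replicate 2 or 3 (0.19 to 0.26 over the 6 such fits, highest adjusted p = 0.127), and with no low-count filter.

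**Figure D2:**
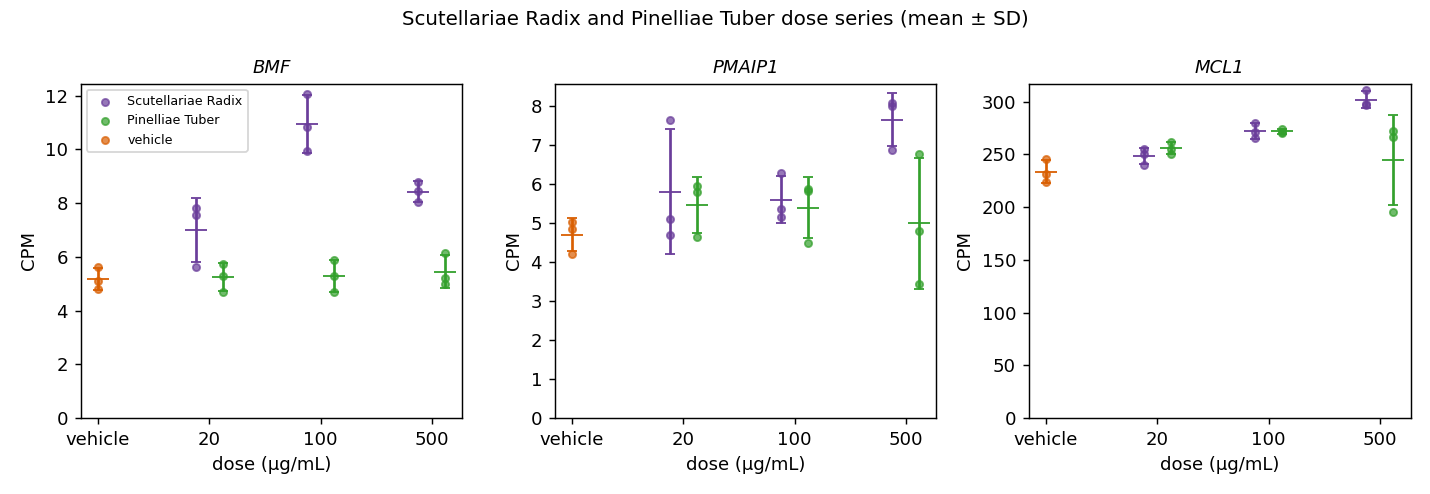
BMF, PMAIP1 and MCL1 in CPM (axes from 0) against the dose of Scutellariae Radix and Pinelliae Tuber, with vehicle at the low end, 1 point per library and mean ± SD of 3 libraries. Scutellariae Radix lies above Pinelliae Tuber for BMF at 100 and 500 µg/mL and for PMAIP1 and MCL1 at 500 µg/mL.

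Over the 18 comparisons with vehicle, 7 of 162 member tests were called, against 4.36% of all gene tests in the same comparisons. BMF and MCL1 were the 2 members that rose at the medium dose of Scutellariae Radix, where 4.9% of genes rose, and BMF, PMAIP1 and MCL1 the 3 that rose at its high dose, where 11.4% of genes rose. In the same extract 10.7% of genes rose at the high against the low dose (2 members, PMAIP1 and MCL1), 2.16% rose at the medium against the low dose (1 member, BMF) and 1.9% fell at the high against the medium dose (1 member, BMF). The median of the 9 members at the high dose against vehicle was -0.02 on the log2 scale, beside -0.02 for all genes.

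**Figure D3:**
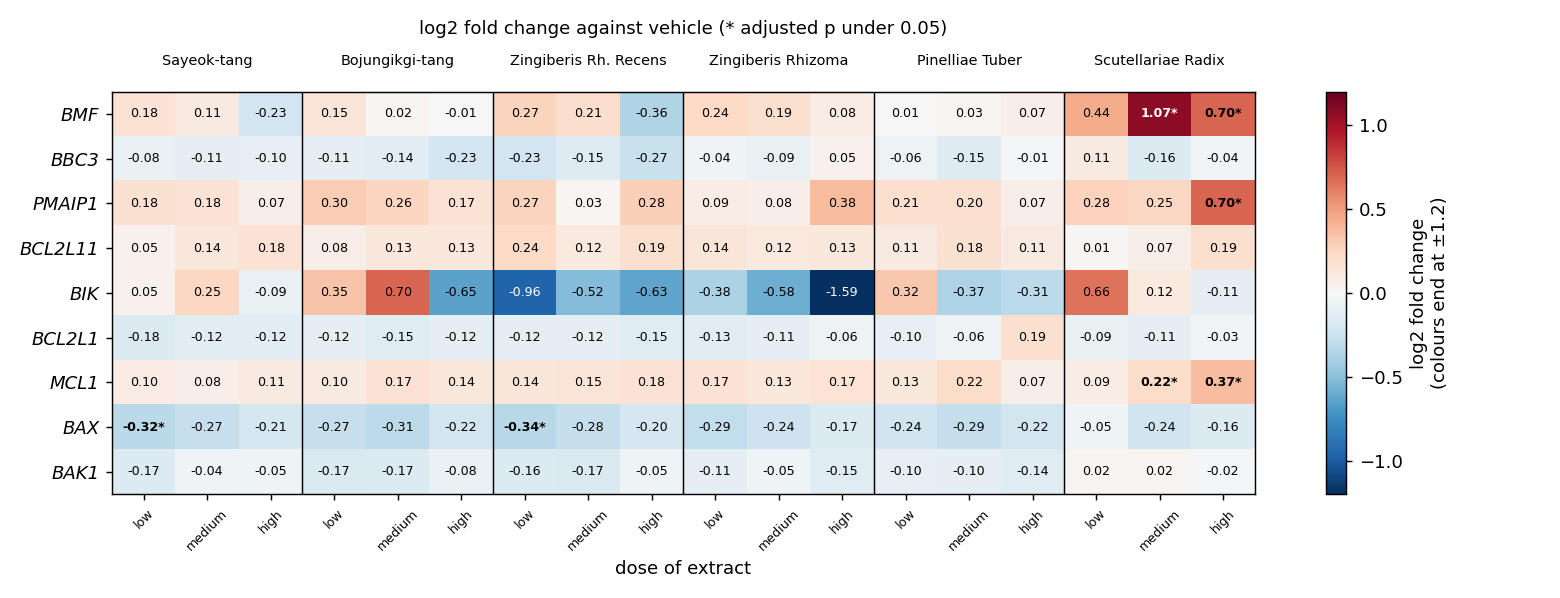
Log2 fold changes of the 9 genes in 6 extracts at 3 doses against the same 3 vehicle libraries, in edgeR's fit, with an asterisk where the adjusted p over all genes was under 0.05 and colours that end at 1.2 in size. The 5 rises are in Scutellariae Radix and the 2 falls are of BAX; BIK has the widest spread and no call.

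The other BH3-only genes did not pass against vehicle in any of the 18 comparisons in edgeR with TMM. BBC3, the gene of PUMA, read 9.48, 8.39 and 8.57 CPM at the high dose of Scutellariae Radix, against 9.41, 9.12 and 8.54 CPM in vehicle, with overlapping groups (-0.04 ± 0.11, adjusted p = 0.850), and its log2 fold changes over the 18 comparisons were -0.27 to 0.11. BCL2L11, the gene of BIM, was above vehicle in each of them by 0.01 to 0.24, with a smallest adjusted p of 0.0586. DESeq2 called it as a rise in Zingiberis Rhizoma Recens low dose (0.24, adjusted p = 0.0258) and in Scutellariae Radix high dose (0.20, adjusted p = 0.0393), and edgeR with the size factors of DESeq2 in the second of these (adjusted p = 0.0495). It read 29.6, 32.8 and 33.1 CPM in the low dose of Zingiberis Rhizoma Recens, against 23.9, 26.9 and 29.997 CPM in vehicle, of which replicate 1, the library with 7.20% ribosomal protein counts, is the lowest. BIK, a BH3-only protein of the endoplasmic reticulum, ranged from 0 to 0.967 CPM. Its 0 was in Zingiberis Rhizoma high-dose replicate 3, where a count of 0 allows a level of up to 0.149 CPM, and its largest difference from vehicle was -1.59 ± 0.57, adjusted p = 0.0550 at that dose, with 3, 4 and 0 counts against 8, 12 and 7 counts in vehicle.

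**Figure D4:**
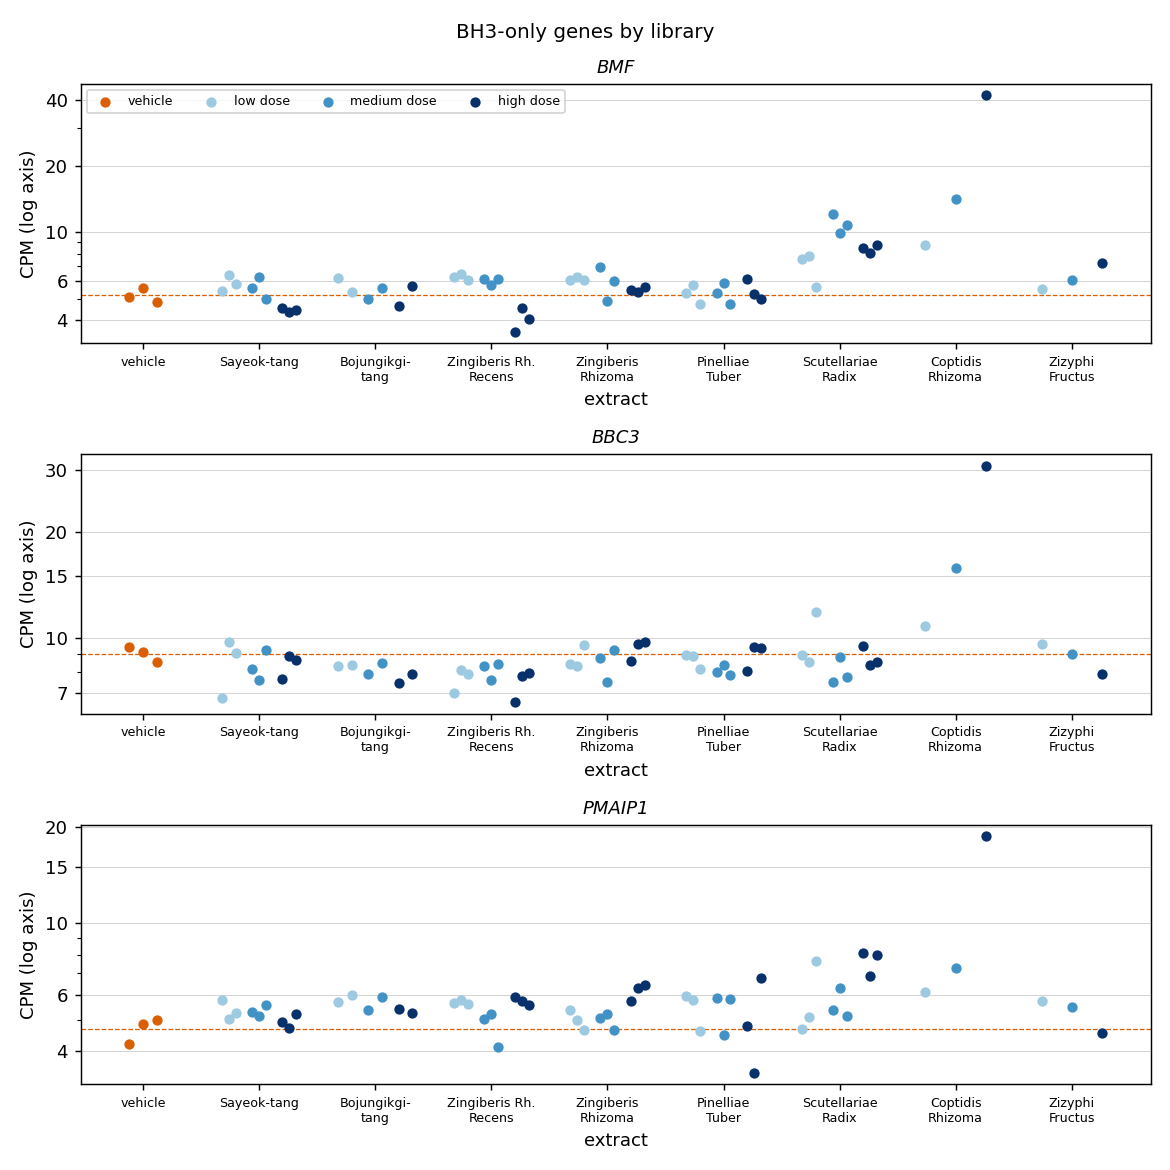
BMF, BBC3 and PMAIP1 in CPM on a log axis, 1 point per library, by extract, with the low, medium and high dose from left to right and the vehicle mean as a dashed line. BMF in Scutellariae Radix medium dose (9.94 to 12.1 CPM) and in the single Coptidis Rhizoma libraries of medium (14.3 CPM) and high dose (42.1 CPM) stands above the other groups, and Zingiberis Rhizoma Recens high dose is lowest, from 3.54 CPM.

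BMF fell at the high dose of Zingiberis Rhizoma Recens relative to its lower doses. It read 3.54, 4.51 and 4.03 CPM at the high dose, against 6.14, 5.75 and 6.16 CPM at the medium and 6.24, 6.45 and 6.08 CPM at the low dose. The high-dose libraries lay below all those of the lower doses. The differences were -0.63 ± 0.12, adjusted p = 0.00520 against the low and -0.57 ± 0.12, adjusted p = 0.0258 against the medium dose, in comparisons where 0.304% and 0.0954% of genes fell. Without high-dose replicate 1, the lowest library, the first lost its call (-0.55, adjusted p = 0.0775), and the second lost it in 5 of 6 such fits, all but that without high-dose replicate 2 (-0.67 to -0.49). The second also lost its call with only the libraries compared. Against vehicle the high dose read -0.36 ± 0.12, adjusted p = 0.0681, and without the 3 libraries that stand apart it was called as a fall (-0.36, adjusted p = 0.0463). The same direction without a call was seen in Sayeok-tang, where BMF read 4.51, 4.33 and 4.46 CPM at the high dose, against 5.40, 6.40 and 5.84 CPM at the low dose (-0.41 ± 0.12, adjusted p = 0.224).

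Fresh and dried ginger differed in BMF at the high dose. Zingiberis Rhizoma Recens read 3.54, 4.51 and 4.03 CPM, against 5.495, 5.38 and 5.67 CPM in Zingiberis Rhizoma, and no library of fresh ginger reached the dried one. The difference was -0.44 ± 0.13, adjusted p = 0.0455, 1 of 9 members in a comparison with 2.26% of genes called. It missed the threshold with DESeq2 (adjusted p = 0.0681), with no low-count filter (0.163), with a replicate block within code set (0.0537) and with only the libraries compared (0.0529). The call ended in 5 of 6 fits without 1 of these libraries, all but that without Zingiberis Rhizoma Recens high-dose replicate 2, at log2 values of -0.54 to -0.36. At the low and medium doses the differences of BMF were 0.03 ± 0.12 (95% confidence interval -0.20 to 0.27) and 0.02 ± 0.12 (-0.22 to 0.26), and neither passed. The effect of high against low dose was not called as different between fresh and dried ginger for BMF or any other member. In that test 108 of 16763 genes were called. PMAIP1 at the high dose differed by -0.09 ± 0.15 (-0.39 to 0.20) and MCL1 by 0.01 ± 0.06 (-0.12 to 0.14).

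Scutellariae Radix and Pinelliae Tuber, which share a code set, gave a comparison free of the vehicle libraries. Pinelliae Tuber read 5.30, 5.90 and 4.71 CPM of BMF at the medium and 6.16, 5.22 and 4.99 CPM at the high dose, below every Scutellariae Radix library of the same dose. Scutellariae Radix was higher by 1.04 ± 0.11, adjusted p = 6.4e-09 at the medium dose, where 3.05% of genes were called, and by 0.62 ± 0.12, adjusted p = 8.4e-05 at the high dose, where 22.8% were. At the high dose 4 of 9 members differed. PMAIP1 was higher in Scutellariae Radix (8.06, 6.87 and 8.00 CPM, against 4.79, 3.42 and 6.76 CPM in Pinelliae Tuber; 0.62 ± 0.15, adjusted p = 0.00144). The lowest of these is Pinelliae Tuber high-dose replicate 2, the library with 12.6% mitochondrial counts, and without it the difference was 0.41 (adjusted p = 0.0429).

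MCL1 was also higher in Scutellariae Radix at the high dose (298, 297 and 311 CPM, against 272, 195 and 267 CPM in Pinelliae Tuber; 0.30 ± 0.06, adjusted p = 4.0e-04), and without Pinelliae Tuber high-dose replicate 2, the library with 12.6% mitochondrial counts, by 0.16 (adjusted p = 0.00629). The effect of high against low dose on MCL1 differed between the extracts by 0.35 ± 0.09, adjusted p = 0.00931, with 0.28 ± 0.06 in Scutellariae Radix and -0.06 ± 0.06 in Pinelliae Tuber, where 9.58% of genes differed. With only the libraries compared in the fit, the calls at the high dose and the interaction were lost, as were those of high against low and medium against low dose in Scutellariae Radix, while BMF at the medium dose kept its call. The interaction was 0.18 without the 3 libraries that stand apart (adjusted p = 0.0269).

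BCL2L1 was called in 2 comparisons, both of which hold the same Pinelliae Tuber library. BCL2L1 encodes BCL-xL, the guard that many colorectal tumours express strongly. In Pinelliae Tuber at the high dose it read 319, 513 and 336 CPM, against 322, 313 and 317 CPM at the low dose. The highest value is replicate 2, with 12.6% mitochondrial counts. High against low dose rose by 0.30 ± 0.08, adjusted p = 0.0447 (1.78% of genes called), and read 0.04 without replicate 2. Likewise the difference from Scutellariae Radix at the high dose (328, 332 and 339 CPM), -0.23 ± 0.08, adjusted p = 0.0363, changed sign without that library, to 0.022. In the same library MCL1 (195 CPM) and PMAIP1 (3.42 CPM) were the lowest of the 60 libraries; what its mitochondrial share has to do with these values was not tested. Over the 18 comparisons with vehicle, BCL2L1 lay between -0.18 and 0.19, below 0 in 17 of them, and was not called. The value above 0 was that of Pinelliae Tuber high dose, which holds replicate 2. Of all 57 extract libraries, 52 lay below every vehicle library for BCL2L1. Without the 3 libraries that stand apart BCL2L1 fell in 2 of the 18 comparisons, Sayeok-tang low dose (-0.15, adjusted p = 0.00967) and Zingiberis Rhizoma Recens high dose (-0.12, adjusted p = 0.0296).

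**Figure D5:**
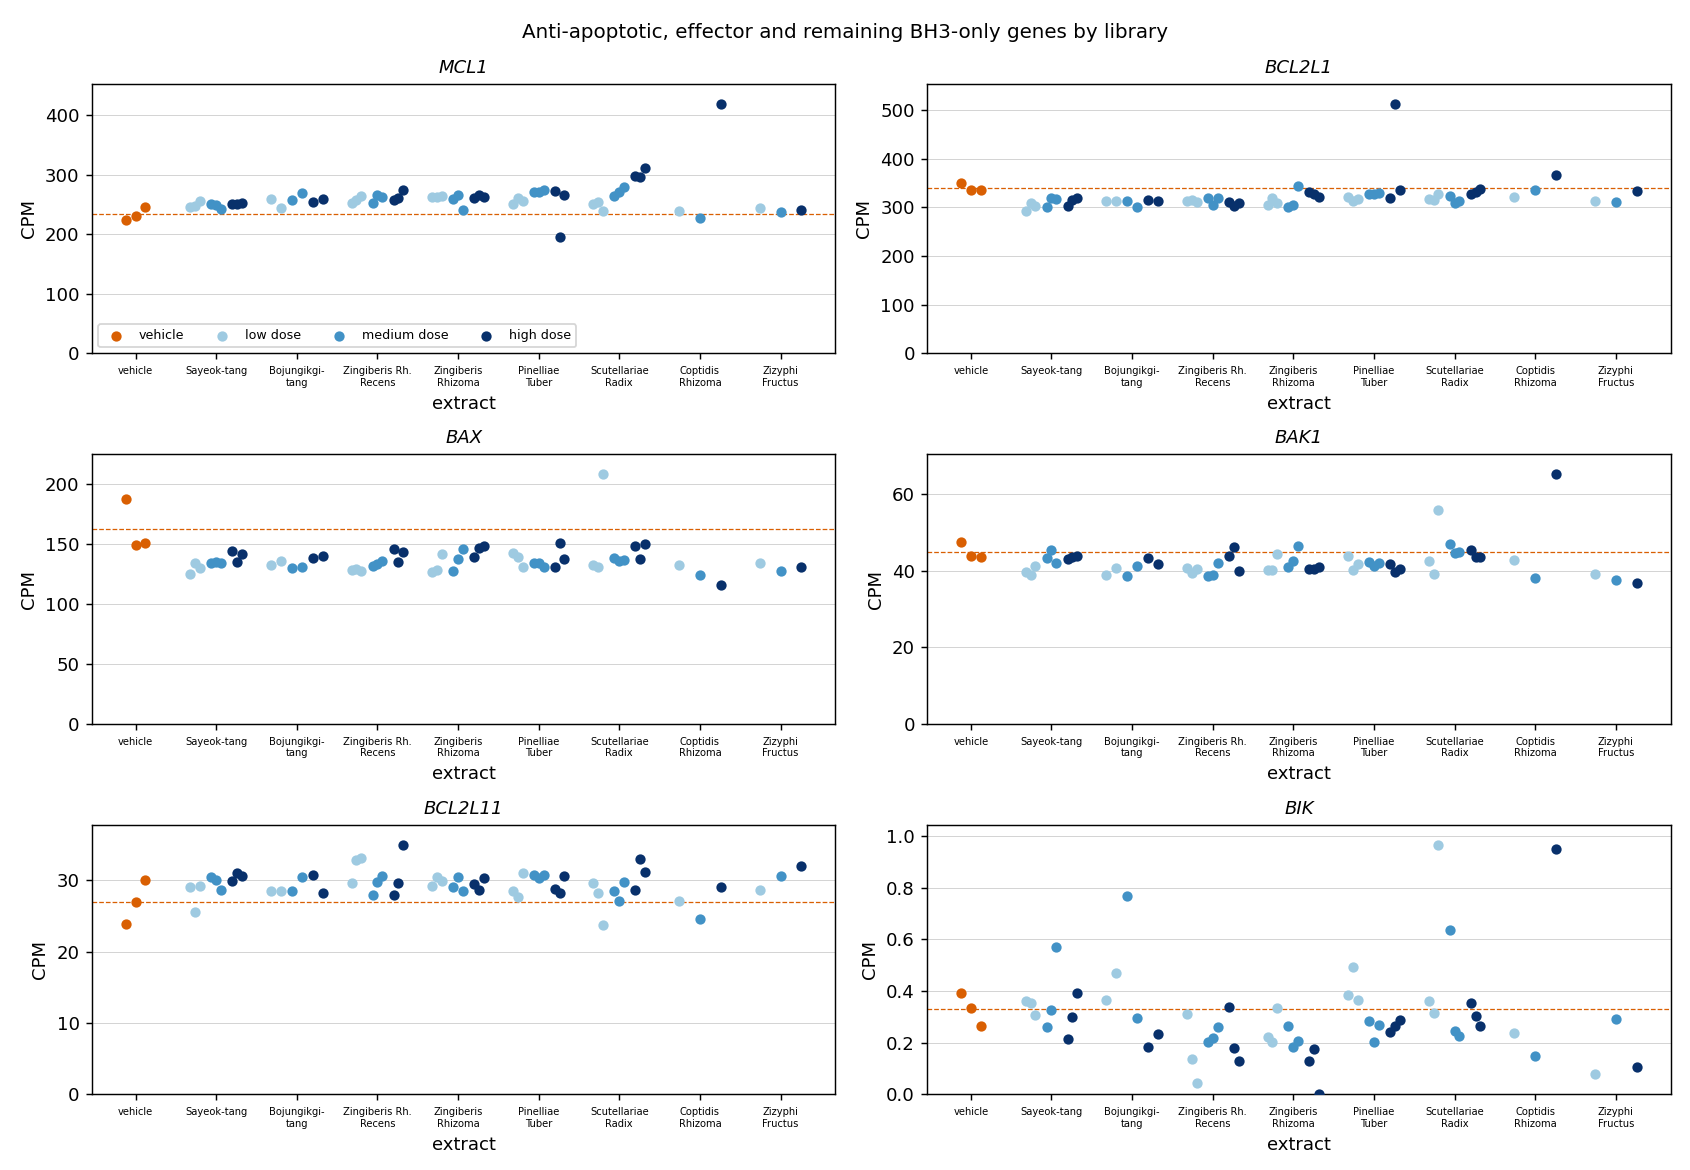
MCL1, BCL2L1, BAX, BAK1, BCL2L11 and BIK in CPM (axes from 0), 1 point per library, by extract, with doses from low to high and the vehicle mean as a dashed line. BAX in 1 vehicle library (188 CPM) and in 1 Scutellariae Radix low-dose library (209 CPM), and BCL2L1 in 1 Pinelliae Tuber high-dose library (513 CPM), lie apart from the libraries of their own group.

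BAX, the cytosolic effector that moves to mitochondria, was lower than vehicle in each of the 18 comparisons, by -0.34 to -0.05 on the log2 scale, and passed the test in 2. It read 125, 134 and 130.5 CPM in Sayeok-tang low dose and 129, 129 and 128 CPM in Zingiberis Rhizoma Recens low dose, against 188, 149 and 151 CPM in vehicle. Neither group overlapped vehicle (-0.32 ± 0.09, adjusted p = 0.0425, and -0.34 ± 0.09, adjusted p = 0.0378), in comparisons where 1.72% and 1.75% of genes fell. Over all extracts, 54 of the 57 libraries lay below every vehicle library for BAX. Vehicle replicate 1, with 7.20% ribosomal protein counts, holds the high value, and without it the differences were -0.21 and -0.22 and were not called. Leaving out any 1 of its own treated libraries also ended each call. The library with the highest BAX of all, 209 CPM, was Scutellariae Radix low-dose replicate 3, against 133 and 131 CPM in the other replicates of that dose, and it has the highest ribosomal protein share, 9.35%. Without the 3 libraries that stand apart, BAX fell in 8 of the 18 comparisons, with no log2 fold change below -0.21 in the 18. In that fit BAX rose at the high against the low dose, with no vehicle library compared, in Scutellariae Radix (0.14, adjusted p = 0.0275) and Zingiberis Rhizoma (0.12, adjusted p = 0.0413). The share of all genes called in that fit was not counted.

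BAK1, the effector that sits on mitochondria, was not called against vehicle, with log2 fold changes of -0.17 to 0.02, below 0 in 16 of the 18 comparisons. It read 45.4, 43.7 and 43.7 CPM at the high dose of Scutellariae Radix, against 47.5, 43.8 and 43.6 CPM in vehicle. BAK1 followed BAX in Scutellariae Radix low-dose replicate 3, at 55.9 CPM, against 42.5 and 39.2 CPM in the other replicates. MCL1 was above vehicle in all 18 comparisons, by 0.07 to 0.37, and was called in the 2 of Scutellariae Radix. At the medium dose it read 272 ± 2.05 CPM in Pinelliae Tuber and 272 ± 7.61 CPM in Scutellariae Radix, a difference without a call. Pinelliae Tuber medium dose was called against vehicle with DESeq2 (0.22, adjusted p = 0.0108). In edgeR it was called with the size factors of DESeq2 (adjusted p = 0.0497) and with only the libraries compared (adjusted p = 0.0426). Without the 3 libraries that stand apart MCL1 was called in 10 of the 18 comparisons, in a fit whose share of all genes called was not counted. Sayeok-tang and Bojungikgi-tang, which share a code set, differed in 0 of 27 member tests over 3 doses; for BMF at the high dose the difference was -0.22 ± 0.14 (95% confidence interval -0.50 to 0.06) and for MCL1 -0.03 ± 0.07 (-0.18 to 0.11).

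Coptidis Rhizoma, a berberine-rich root given as 1 library per dose, held the highest BMF, BBC3, PMAIP1 and MCL1 of the 60 libraries. These differences have no replicate check, and the intervals given cover counting error only. BMF read 8.74 CPM at 12.8 µg/mL, 14.3 CPM at 64 µg/mL and 42.1 CPM at 320 µg/mL (exact Poisson 95% interval 39.6 to 44.6), against 5.10, 5.61 and 4.82 CPM in vehicle. Its log2 ratio to the vehicle mean, with 0.5 CPM added, was 0.70, 1.38 and 2.91 from low to high dose.

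BBC3 and PMAIP1 followed the same order. BBC3 read 10.8, 15.8 and 30.7 CPM (interval at the high dose 28.6 to 32.9) from low to high dose, against 9.41, 9.12 and 8.54 CPM in vehicle, with log2 ratios of 0.25, 0.77 and 1.71. PMAIP1 read 6.13, 7.29 and 18.7 CPM (interval at the high dose 17.1 to 20.4), against 4.22, 4.85 and 5.01 CPM in vehicle, with log2 ratios of 0.35, 0.58 and 1.89. With 0.5 CPM added, BMF, BBC3 and PMAIP1 were over 2-fold above the vehicle mean at the high dose, 3 of 9 members where 6.01% of genes were, and at the medium dose BMF alone, where 0.686% of genes were. The high- and medium-dose libraries are the 2 with the lowest mitochondrial share, 1.91% and 2.35%, whose part in these values was not tested.

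Guards and effectors in the Coptidis Rhizoma high-dose library were less far from vehicle. MCL1 read 419 CPM (interval 412 to 427), against 224, 231 and 245 CPM in vehicle, a log2 ratio of 0.84, while the low and medium doses read 239 and 228 CPM. BAK1 was at 65.3 CPM (0.53), the highest of the 60 libraries, and BAX at 116 CPM (-0.49), the lowest. BIK read 0.950 CPM on 25 counts (interval 0.615 to 1.40), against 0.392, 0.337 and 0.266 CPM in vehicle, and the addition of 0.5 CPM holds its ratio to 0.80. BCL2L11 (0.11) and BCL2L1 (0.11) had ratios near 0. With the 3 doses taken as 1 group against vehicle (n = 3 each), 0 of 8 members tested passed, where 0.0265% of genes did. The 3 libraries are 1 per dose and not replicates, so the spread in this fit includes the differences between doses. A lack of calls here therefore does not show a lack of change. BMF, BBC3, PMAIP1 and BAX had unadjusted p-values of 0.00600, 0.0174, 0.0229 and 0.0170, and BIK did not pass the filter. With the spread shared over all 60 libraries, 5 were called: BMF, BBC3, PMAIP1 and MCL1 rose and BAX fell. That fit also took the 3 doses as 1 group, and its spread was estimated mostly from the other groups. Its share of all genes called was not counted.

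For Zizyphi Fructus (jujube fruit), with 1 library per dose, BMF read 5.52, 6.10 and 7.23 CPM from low to high dose, against 5.10, 5.61 and 4.82 CPM in vehicle, and the high-dose log2 ratio was 0.44. PMAIP1 read 5.71, 5.48 and 4.56 CPM and MCL1 244, 237 and 241 CPM. With 0.5 CPM added, no member was over 2-fold from the vehicle mean; BIK, whose level is below that addition, read 0.0783, 0.290 and 0.105 CPM on 2, 8 and 2 counts, against 8, 12 and 7 counts in vehicle.

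Both effectors were lower in Zizyphi Fructus than in vehicle. BAX read 135, 128 and 131 CPM from low to high dose, against 188, 149 and 151 CPM in vehicle, and BAK1 39.1, 37.6 and 36.8 CPM, against 47.5, 43.8 and 43.6 CPM in vehicle. Every Zizyphi Fructus library lay below every vehicle library for both genes. This is not particular to Zizyphi Fructus: of all 57 extract libraries, 54 did so for BAX and 42 for BAK1. The share of all genes with such a gap was not counted. With the 3 doses as 1 group, 0 of 8 members tested passed in edgeR, where 2.78% of genes did, with BAX at -0.31 ± 0.08, adjusted p = 0.0666 and BAK1 at -0.25 ± 0.06, adjusted p = 0.0503. Both were called as falls with DESeq2 (adjusted p = 0.0114 and 0.0208) and with no low-count filter (adjusted p = 0.00126 and 0.0105).

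Around the family, the stress arm of ATF4 and CHOP had the highest median of the gene lists examined at the high dose of Scutellariae Radix. Of its 13 genes 11 rose and 0 fell against vehicle, where 11.4% of all genes rose. The list median was 0.77 beside -0.02 for all genes on the log2 scale. ATF3 (1.69 ± 0.14), TRIB3 (1.26 ± 0.07), the asparagine synthetase ASNS (1.24 ± 0.06) and the mTOR inhibitor DDIT4 (1.07 ± 0.09) rose. At the medium dose, where 4.9% of genes rose, 7 rose and 0 fell (median 0.28). The list median was higher in Coptidis Rhizoma, at 2.35 beside 0.01 for all genes, with its 3 doses as 1 group against vehicle. There 0 of the 13 genes were called, where 0.0265% of genes were. Zingiberis Rhizoma at the high dose, where 13.1% of genes were called and 1138 of 16763 rose, had 9 of the 13 higher (ASNS 1.11 ± 0.06, median 0.52). Its PMAIP1 read 5.71, 6.27 and 6.41 CPM, against 4.22, 4.85 and 5.01 CPM in vehicle (0.38 ± 0.15, adjusted p = 0.0805; called with only the libraries compared, adjusted p = 0.0450), and its BMF 5.495, 5.38 and 5.67 CPM, against 5.10, 5.61 and 4.82 CPM in vehicle (0.08 ± 0.12, adjusted p = 0.685).

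Death receptor genes moved both ways at the high dose of Scutellariae Radix, with 5 higher and 2 lower of 10 tested of 11 listed (median 0.16), in a comparison where 11.4% of all genes rose and 12.1% fell; the counts of the lists that follow are read against the same shares. The TRAIL receptor genes TNFRSF10A (0.51 ± 0.10) and TNFRSF10D (0.69 ± 0.10, a decoy) rose, and their ligand TNFSF10 (-1.17 ± 0.13) and the adaptor TRADD (-0.42 ± 0.10) fell. Of 17 caspase, apoptosome and caspase inhibitor genes, 1 rose and 4 fell (median 0.03). BIRC3 (0.49 ± 0.10) rose, and BIRC2 (0.23 ± 0.09) did not pass. The nuclease ENDOG (-0.61 ± 0.14) and survivin, BIRC5 (-0.33 ± 0.08), fell, as did CASP6 (-0.33 ± 0.09) and CASP9 (-0.28 ± 0.09). The remaining BCL2 family had 1 higher and 2 lower of 12 tested of 14 listed (median -0.13): BCL2L2, the gene of the guard BCL-w, rose slightly (0.20 ± 0.07), BCL2L14 (-1.08 ± 0.23) and BCL2L15 (-0.61 ± 0.09) fell, and BNIP3L (0.04 ± 0.07), known for mitophagy, did not pass.

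Of 11 FOXO genes and targets at the same dose, 2 rose and 2 fell (median -0.05), with FOXO1 (0.53 ± 0.07) and KLF6 (0.17 ± 0.05) higher, TXNIP (-0.94 ± 0.05) and IRS2 (-0.25 ± 0.09) lower and SOD2 (0.05 ± 0.09) not called. Of 11 genes for the turnover of MCL-1 and BIM, 3 rose and 0 fell (median 0.04): USP9X (0.32 ± 0.11), a deubiquitinase of MCL-1, BTRC (0.36 ± 0.09) and FBXW7 (0.17 ± 0.06), both parts of ubiquitin ligases, while FBXO4 (-0.26 ± 0.11) and TRIM17 (-0.36 ± 0.28) did not pass. CASP6, CASP9, KLF6 and FBXW7 fall outside the rule for named genes. They were added, after their values were seen, to complete the counts of the caspase, FOXO and turnover lists. Not every called gene of the death receptor list and of the ATF4 and CHOP list is named.

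Genes with the most similar course to each called member were found by Pearson's r of mean log2 CPM over the 19 groups with 2 or 3 libraries, among 11200 genes, as a description. For BMF these were HTR1D (0.850), VIPR1 (0.842) and ALDH1A3 (0.826), and for PMAIP1 HOMER1 (0.900), CDKN2B (0.842) and HSPA13 (0.837). MCL1 was closest to KBTBD2 (0.938), MAPK6 (0.916) and MCFD2 (0.908), and BAX to GPATCH4 (0.919), MRPS5 (0.917) and WDR74 (0.916). Among the members, the highest r over the same groups was that of PMAIP1 with MCL1 (0.743), followed by BAX with BAK1 (0.662). The points share code sets, and they include the groups that hold the libraries that stand apart.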

How the data were processed

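Per the labels' protocols, 1 µg of total RNA (RIN above 7) from HT29 cells was made into directional RNA libraries and sequenced as 100 bp paired reads. The authors deposited 1 table of RSEM expected counts for each library by Ensembl gene. Tools named in the submitters' processing notes are RSEM 1.3.3, STAR 2.7.3a, Trim Galore 0.6.5 and FastQC 0.11.9. Annotation release: not given in the sources used here; nor is the strand setting. The table holds 210 further columns, not used here.

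Expected counts were rounded (90.0% to 92.1% per library were whole). Symbols, positions and exon lengths come from GENCODE 29. The 54 libraries of 19 groups were fitted together in edgeR 4.0.16 (R 4.3.3): filterByExpr, TMM, glmQLFit with robust = TRUE, glmQLFTest, Benjamini-Hochberg over 16763 genes, threshold 0.05, with 35 residual degrees of freedom and a common biological coefficient of variation of 0.0855. CPM use TMM-scaled library sizes. Coptidis Rhizoma and Zizyphi Fructus were each fitted as 1 group of 3 doses with vehicle; their single libraries are log2 ratios to the vehicle mean with a pseudocount of 0.5 CPM. The scripts were tested on simulated data. RefSeq promoters were searched on both strands.

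Alternatives were a replicate block, each library left out in turn, DESeq2 1.42.0, edgeR with the size factors of DESeq2, fitting only the compared libraries, no filter on low counts, and leaving out 3 libraries of groups of 2 or 3 whose mitochondrial or ribosomal protein share lay over 10 median absolute deviations from its median. The members, gene lists, tests and alternatives were chosen with earlier results of these data known. Named are all 9 members, up to 4 genes of each list with the smallest p in any comparison with vehicle or of high with low dose (so not always called where described), 4 additions given as such, and the 3 genes most like each called member; 1 of the gene lists is not reported here. Same-numbered libraries deviated together (every correlation above 0.1, over genes with a mean log2 CPM above 2) in 4 of 45 comparisons: Pinelliae Tuber low dose against vehicle (0.154 to 0.514), high against medium (0.121 to 0.222) and medium against low dose (0.116 to 0.179), and Zingiberis Rhizoma Recens against Zingiberis Rhizoma at the low dose (0.130 to 0.304).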

Additional observations from a re-analysis of the deposited data

Results flagged for a closer look

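The effect of high against low dose on MCL1 differed between Scutellariae Radix and Pinelliae Tuber, by an interaction of 0.35 ± 0.09, adjusted p = 0.00931 in edgeR's quasi-likelihood test with Benjamini-Hochberg adjustment over all genes. The groups read 302 ± 8.09 CPM at the high and 248 ± 7.87 CPM at the low dose of Scutellariae Radix, against 245 ± 42.8 CPM and 256 ± 5.42 CPM at those doses of Pinelliae Tuber (mean ± SD, n = 3). Without Pinelliae Tuber high-dose replicate 2 (195 CPM of MCL1, 12.6% mitochondrial counts) the interaction was 0.21 (adjusted p = 0.0188), and over the 12 fits that left out 1 library it was 0.21 to 0.43 and kept its call. It lost its call with only the libraries compared (adjusted p = 0.586).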

How the results depend on the processing

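Of the 162 member tests against vehicle, 7 were called, 17 with DESeq2 and 25 without the 3 libraries that stand apart, and 4 to 15 with 1 library left out, 4 without vehicle replicate 1 and 15 without vehicle replicate 3. Of the 25, 10 are of MCL1 and 8 of BAX. The share of all genes called was counted in the main fits only, at 4.36% against vehicle. The counts of the alternative fits, here and below, have no such share beside them. BMF at the medium dose and BMF, PMAIP1 and MCL1 at the high dose of Scutellariae Radix against vehicle kept their calls in every alternative run. High against low dose had 4 member calls, 1 with only the libraries compared, and 3 to 4 with 1 library left out. Without the 3 libraries that stand apart, BAX was gained there as a rise in 2 comparisons. High against medium dose had 2, 1 with no low-count filter, 4 without the 3 that stand apart, and 1 to 4. Medium against low dose had 1, 0 with only the libraries compared, and 1 to 3. Extracts of 1 code set had 6, 2 with only the libraries compared, and 5 to 8. The interactions had 1, 2 without the 3 that stand apart, 0 with only the libraries compared, and 1 to 3. Coptidis Rhizoma had 0 in edgeR, 1 with DESeq2, 5 with all 60 libraries, and 0 to 0 with 1 library left out. Zizyphi Fructus had 0 in edgeR (BAX and BAK1 at unadjusted p of 0.00395 and 0.00144), 2 without the low-count filter, likewise 2 with DESeq2, and 0 to 2. BCL2L1 between Scutellariae Radix and Pinelliae Tuber at the high dose reversed, to 0.018 without the 3 that stand apart and to 0.022 without Pinelliae Tuber high-dose replicate 2, and ran from -0.35 to 0.022 with 1 library left out. The Coptidis Rhizoma high-dose log2 ratio of BMF was 2.80 with 1 CPM added, and that of BBC3 1.78 with CPM of total counts. The cause of these changes was not tested.

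A replicate block left the calls against vehicle at 7 and changed high against low dose to 3; a block within code set could not be run against vehicle. BCL2L1 in Pinelliae Tuber, high against low dose, lost its call with the block, and BMF between fresh and dried ginger at the high dose with the block within code set (-0.44, adjusted p = 0.0537). A fit that left out a library was run for the comparisons that library takes part in, and the other calls stand as they were. BIK, at 0 to 25 counts a library, is limited by depth.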

Other observations

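BIRC3, a gene under NF-kB control, rose at the high dose of Zingiberis Rhizoma (0.79 ± 0.10). At that dose survivin, BIRC5 (-0.32 ± 0.08), the nuclease ENDOG (-0.41 ± 0.13), the TRAIL gene TNFSF10 (-0.49 ± 0.12) and BCL2L14 (-0.65 ± 0.22) fell (log2 fold changes ± SE in edgeR's fit, n = 3 against 3). In that comparison 1138 of 16763 genes rose and 1061 fell. Of 17 caspase, apoptosome and caspase inhibitor genes 2 rose and 3 fell, and of 10 death receptor genes tested 1 rose and 1 fell. Of 12 tested genes of the remaining BCL2 family 0 rose and 1 fell. Not every called gene is named here.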
